A study of Mus musculus with 12 samples.

Results

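The Dishevelled and planar cell polarity genes were followed in cultured mouse neurons that carried or lacked a microexon of Daam1, with and without a block of the kinase ROCK. The group was defined by gene name, and it was chosen with earlier results of these data known. It holds 10 genes, Dvl1, Dvl2, Dvl3, Vangl1, Vangl2, Celsr1, Celsr2, Celsr3, Prickle1 and Prickle2, of 36902 listed in the deposited tables, and 9 of the 10 carried counts. Celsr3 (Ensembl ENSMUSG00000023473) is entered as NA in all 12 tables, as are 3342 genes in all, and was not analysed here. All 9 remaining members passed the filter on low counts and were tested. None passed the test between genotypes or with the inhibitor. Vangl1, Celsr1 and Prickle1 were highest in the same 3 libraries, from 3 of the 4 groups, while Vangl2, Celsr2 and Prickle2 were lowest in 1 of those, and Dvl1 had the highest level per unit of gene length.

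Planar cell polarity is the alignment of cells within the plane of a tissue. In its core, the atypical cadherins of the Celsr family bridge neighbouring cells, the tetraspan proteins Vangl1 and Vangl2 recruit the LIM-domain proteins Prickle1 and Prickle2 on one side of a cell, and Frizzled receptors recruit Dishevelled (Dvl) proteins on the opposite side. Dishevelled also carries Wnt signals that do not run through beta-catenin to the formin Daam1 and on to the small GTPase RhoA and its kinase ROCK, which acts on actin and myosin. In the nervous system these genes are known for neural tube closure, axon guidance and the migration and branching of neurons.

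The 12 libraries are poly(A) RNA of neurons labelled glutamatergic, differentiated in a dish out of mouse embryonic stem cells (mESC) and taken at day 21 in vitro. WT neurons carry the Daam1-MIC_WT label and KO neurons the Daam1-MIC_KO label, a deletion of the Daam1 microexon. Neurons of each genotype received either water as vehicle or 10 µM Y-27632, a ROCK inhibitor, for 2 h, which gives 4 groups of 3 libraries. Each of 3 WT and 3 KO cell lines gave 1 vehicle and 1 inhibitor library, so all replicates are labelled cell lines, and the libraries of 1 line share that line. The series text mentions hippocampus, but the groups used here follow the labels of the samples, which describe cultured neurons. Nothing in the labels says that the lines of a genotype come from separate founder clones, so the p-values cannot speak for clones. In the tests by group they measure the spread between libraries, and over both treatments the spread between line sums. Each line gave 1 library to a group, so the spread within a group holds differences between libraries as well as between lines.

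Library totals ran from 23253566 to 35012561 counts. Total Daam1, whose count over the whole gene is no check of a deleted microexon, lay between 133 and 188 CPM (read counts per library total, adjusted by TMM) in 11 libraries and at 67.8 CPM in the KO inhibitor library of line 3. That library stood apart: its median correlation with the others was 0.854, against 0.953 to 0.986 for the rest, and the first principal component, 74.3% of the variance, placed it at 163 and the others between -73.8 and 68.1. Its summed level of 9 glutamatergic markers was 563 CPM. WT vehicle line 2 had 1670 CPM and WT inhibitor line 3 had 1980 CPM of the same markers, against 2310 to 2810 CPM in the remaining 9 libraries. Of these 9 markers, which include the general neuronal genes Snap25, Map2 and Rbfox3, 5, 3 and 3 lay below the range of those 9 libraries in the order named, while 1 (Tbr1), 1 (Neurod2) and 2 (Neurod2 and Neurod6) lay above it. Among those markers Slc17a6, a vesicular glutamate transporter, had a median of 73.2 cRPKM (the authors' per-length level), while Slc17a7, Neurod2, Neurod6 and Tbr1, markers of forebrain glutamatergic neurons, had medians of 0.41, 0.08, 0.385 and 0.305 cRPKM. The GABAergic markers Gad1 and Slc32a1 had medians of 57.8 and 55.1 cRPKM in the same cultures. In the same 3 libraries the summed level of 7 progenitor markers was 942, 440 and 406 CPM, against 41.0 to 165 CPM in the other 9, and 7, 4 and 5 of the 7 lay above the range of those 9. The summed level of 7 mesenchymal markers was 579, 1260 and 844 CPM, against 36.3 to 394 CPM, and 6 of 7 lay above that range in both WT libraries but only Pdgfra in the KO library. No marker of these 2 lists was at 0 in any library. The summed astrocyte markers were at 1080 CPM in the KO inhibitor library of line 3 and at 432 to 685 CPM elsewhere.

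In these bulk samples, a smaller number of cells of a type and less RNA per cell cannot be told apart. Values without 1 or all of the 3 libraries stand beside the main results that rest on them.

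Per unit of gene length, Dvl1 was the most abundant member and Celsr1 the least. The median level over the 12 libraries was 36.8 cRPKM for Dvl1, 15.8 for Dvl3, 15.1 for Celsr2, 14.7 for Prickle2, 11.3 for Prickle1, 7.18 for Vangl2, 6.83 for Dvl2, 3.71 for Vangl1 and 0.095 for Celsr1. Dvl1 exceeded Dvl3 in 12 of 12 libraries, Prickle1 exceeded Vangl2 in 12 of 12, and Vangl1 exceeded Celsr1 in 12 of 12. The neighbours in between did not keep their order: Dvl3 was above Celsr2 in 8 of 12 libraries, Celsr2 above Prickle2 in 6, Prickle2 above Prickle1 in 9, Vangl2 above Dvl2 in 9 and Dvl2 above Vangl1 in 10. The levels of Dvl3, Celsr2 and Prickle2 lay within their spread of each other. Celsr1 rested on 13 to 363 counts a library and Celsr2 on 1368 to 6305.

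**Figure D1:**
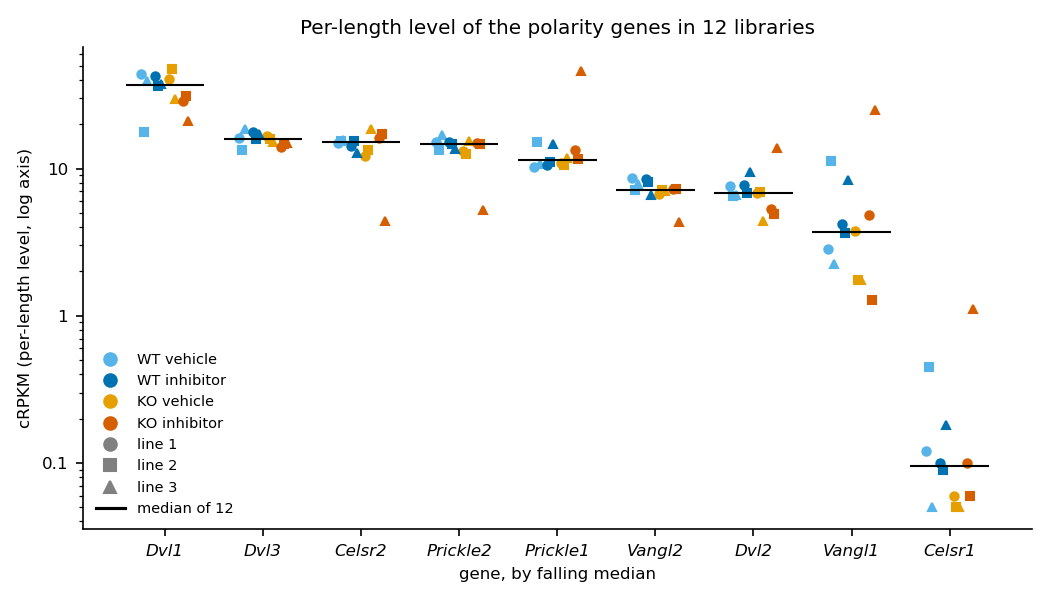
Per-length level (cRPKM, log axis) of the 9 members with counts in each of the 12 libraries, ordered by falling median; colours are groups, symbols are cell lines and bars are medians of 12. Dvl1 lies highest with a median of 36.8 and Celsr1 lowest with 0.095, and the triangle of the KO inhibitor group lies lowest for Celsr2, Prickle2 and Vangl2 and highest for Prickle1, Dvl2, Vangl1 and Celsr1.

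Dvl1 (ENSMUSG00000029071, chr4:155847402-155859303, plus strand, GRCm38) encodes a cytoplasmic scaffold that passes Wnt signals on from Frizzled. Its level in lines 1, 2 and 3 was 141, 60.5 and 129 CPM in WT vehicle, 139.9, 121 and 125 CPM in WT inhibitor, 139, 158 and 100.3 CPM in KO vehicle, and 94.1, 104 and 65.7 CPM in KO inhibitor. The 3 KO inhibitor libraries lay below all WT inhibitor libraries, while they overlapped the KO vehicle libraries. Within each KO line the inhibitor library was lower than the vehicle library, with log2 differences of -0.56, -0.60 and -0.61, whereas those of the WT lines were -0.011, 1.00 and -0.044. The value of 1.00 in WT line 2 came with the lowest Dvl1 value of the series in its vehicle library. That library is among the 3 with high summed progenitor markers.

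Dvl2 (ENSMUSG00000020888, chr11:70000595-70012301, plus strand) is a second Dishevelled scaffold. It measured 21.9, 19.6 and 19.1 CPM in WT vehicle, 22.5, 20.1 and 27.7 CPM in WT inhibitor, 20.5, 20.4 and 13.1 CPM in KO vehicle, and 15.5, 14.6 and 38.0 CPM in KO inhibitor. The KO inhibitor group thus held both low values and the highest one. Dvl2 shares 1151 of its 6298 exon bases (18.3%) with Acadvl, a mitochondrial fatty acid oxidation enzyme on the opposite strand, and whether the authors' counting used the strand is not given in the sources used here. Acadvl ran from 21.6 to 61.3 CPM, and Dvl2 and Acadvl had r = 0.989 over 12 libraries and 0.982 over the 11 that leave out KO inhibitor line 3. The Dvl2 counts are therefore uncertain, and how many reads the genes share was not tested.

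Dvl3 (ENSMUSG00000003233, chr16:20516982-20534010, plus strand), the third Dishevelled scaffold, varied least of the members over the 12 libraries. It measured 38.7, 33.9 and 44.3 CPM in WT vehicle, 43.0, 39.1 and 42.4 CPM in WT inhibitor, 41.7, 39.0 and 38.1 CPM in KO vehicle, and 33.9, 36.3 and 34.5 CPM in KO inhibitor. The KO inhibitor libraries lay below both the WT inhibitor and the KO vehicle libraries, by small amounts, and overlapped WT vehicle. The standard deviation of its log2 CPM stood at the 11.7th percentile of all genes tested, and at the 25.7th over the 11 without KO inhibitor line 3, where Prickle2, at the 17.0th, and Vangl2, at the 17.7th, varied less.

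Vangl1 (ENSMUSG00000027860, chr3:102153583-102204693, minus strand) encodes a tetraspan protein of the polarity core. It measured 17.7, 74.3 and 14.0 CPM in WT vehicle, 26.7, 23.6 and 53.6 CPM in WT inhibitor, 24.7, 11.2 and 11.5 CPM in KO vehicle, and 30.5, 8.30 and 150.4 CPM in KO inhibitor. Its 3 highest values fell in KO inhibitor line 3, WT vehicle line 2 and WT inhibitor line 3, so that each of the 3 groups concerned held 1 high library and the groups overlapped. Its spread was at the 92.5th percentile of genes tested and at the 92.6th over 11 libraries.

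Vangl2 (ENSMUSG00000026556, chr1:172000960-172028444, minus strand), whose loss in mice is known to leave the neural tube open, varied far less. It measured 46.9, 41.1 and 43.0 CPM in WT vehicle, 47.2, 45.7 and 37.2 CPM in WT inhibitor, 39.1, 40.4 and 40.2 CPM in KO vehicle, and 40.2, 41.0 and 22.8 CPM in KO inhibitor. The KO vehicle libraries lay just below the WT vehicle libraries, and the lowest value of all was that of KO inhibitor line 3. Without that library the spread dropped from the 36.7th to the 17.7th percentile.

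Celsr1 (ENSMUSG00000016028, chr15:85898929-86033777, minus strand) encodes an atypical cadherin with many extracellular repeats and a membrane part like that of adhesion receptors. It measured 1.34, 5.06 and 0.555 CPM in WT vehicle, 1.12, 0.973 and 2.01 CPM in WT inhibitor, 0.658, 0.606 and 0.510 CPM in KO vehicle, and 1.09, 0.665 and 11.5 CPM in KO inhibitor. Its 3 highest values came from the same 3 libraries as those of Vangl1. The KO vehicle libraries lay below all KO inhibitor libraries, by a margin that in lines 1 and 2 rests on 14 to 35 counts.

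Celsr2 (ENSMUSG00000068740, chr3:108390851-108415552, minus strand), a paralogue of Celsr1 that is known in neurons, measured 152, 167 and 161 CPM in WT vehicle, 148, 164 and 135 CPM in WT inhibitor, 132, 141 and 202 CPM in KO vehicle, and 168, 182 and 43.5 CPM in KO inhibitor. The KO inhibitor group thus held both the lowest value of all, 43.5 CPM, and values of 168 and 182 CPM. The lower of these was barely above the highest WT value of 167 CPM. With all libraries kept, the KO inhibitor libraries overlapped those of WT inhibitor (log2 fold change -0.18, edgeR unadjusted p = 0.673). WT vehicle, WT inhibitor and KO vehicle overlapped too.

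Prickle1 (ENSMUSG00000036158, chr15:93499114-93595891, minus strand) encodes a cytoplasmic partner of the Vangl proteins. It measured 40.3, 62.9 and 42.5 CPM in WT vehicle, 42.4, 45.2 and 59.9 CPM in WT inhibitor, 45.6, 42.6 and 48.7 CPM in KO vehicle, and 53.2, 47.5 and 176 CPM in KO inhibitor. The same 3 libraries were highest again, with the remaining 9 between 40.3 and 53.2 CPM. Its paralogue Prickle2 (ENSMUSG00000030020, chr6:92370908-92706155, minus strand) measured 112, 105 and 126 CPM in WT vehicle, 116, 113 and 104 CPM in WT inhibitor, 104, 95.6 and 119.7 CPM in KO vehicle, and 113, 114 and 37.8 CPM in KO inhibitor. Only the KO inhibitor library of line 3 lay outside the range of 95.6 to 126 CPM that the other 11 spanned.

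**Figure D2:**
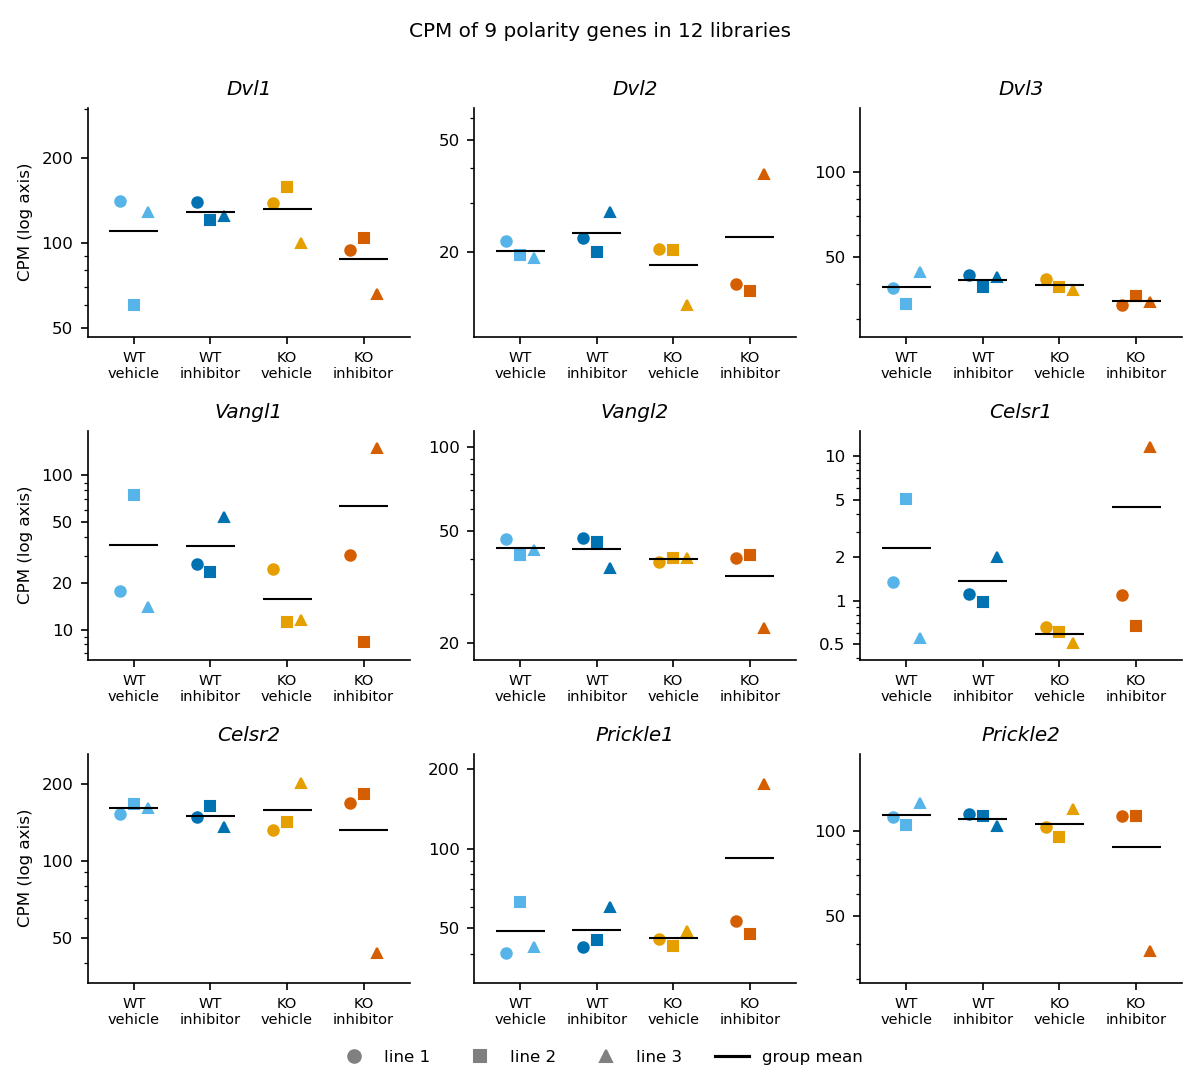
CPM (log axis) of the 9 members in each library, by group, with symbols for the cell lines and bars for group means (n = 3). Vangl1, Celsr1 and Prickle1 reach 150.4, 11.5 and 176 CPM in KO inhibitor line 3, where Vangl2, Celsr2 and Prickle2 are lowest at 22.8, 43.5 and 37.8 CPM.

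RefSeq (GRCm38.p6) gave the sequence before the annotated starts of 8 of the 10 members, all except Vangl1 and Celsr1. The windows of Celsr2 and Prickle2, which were lowest in the same library, and of Prickle1, which was highest there, are shown as the 250 bases before the outermost start, 5′ to 3′ on the gene's strand, with CG dinucleotides in capitals. They lie at chr3:108415580-108415829 (minus), chr6:92706185-92706434 (minus) and chr15:93595903-93596152 (minus).
Celsr2: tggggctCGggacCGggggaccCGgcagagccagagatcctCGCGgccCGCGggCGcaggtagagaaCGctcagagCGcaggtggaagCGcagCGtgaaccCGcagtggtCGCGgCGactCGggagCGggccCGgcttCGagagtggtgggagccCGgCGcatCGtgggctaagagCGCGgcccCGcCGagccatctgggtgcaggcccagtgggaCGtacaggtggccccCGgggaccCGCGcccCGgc
Prickle2: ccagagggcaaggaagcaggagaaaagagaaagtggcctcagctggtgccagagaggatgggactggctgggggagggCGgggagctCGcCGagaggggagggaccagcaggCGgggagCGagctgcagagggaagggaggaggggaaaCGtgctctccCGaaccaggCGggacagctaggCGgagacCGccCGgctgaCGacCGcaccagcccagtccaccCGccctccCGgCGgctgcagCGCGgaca
Prickle1: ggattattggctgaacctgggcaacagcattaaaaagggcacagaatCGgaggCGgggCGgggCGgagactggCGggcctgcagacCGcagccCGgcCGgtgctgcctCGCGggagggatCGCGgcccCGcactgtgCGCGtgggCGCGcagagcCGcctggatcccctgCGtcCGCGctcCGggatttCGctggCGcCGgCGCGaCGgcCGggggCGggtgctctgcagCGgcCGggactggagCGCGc
The windows hold 32, 18 and 34 CG dinucleotides and are 75.2%, 70.0% and 74.0% G or C, where the median of 32851 promoter windows is 6 CG dinucleotides. Other annotated starts of Prickle2 have windows with 4 or 5 CG dinucleotides, and a second start of Prickle1 has 16. Of the motifs GGAATG, TGACGTCA and CACGTG, searched on both strands, none occurs in these 3 windows. Among all windows of this length 12.6% hold GGAATG, 1.55% TGACGTCA and 6.02% CACGTG. Of the members, only Dvl2 held any of them, with GGAATG and CACGTG in the window at chr11:70000342-70000591 (plus), and these matches are descriptions of the letters alone.

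Within the Vangl and Celsr families, the balance of the paralogues moved between libraries, and within the Prickle family it moved mainly in KO inhibitor line 3. The per-length ratio of Vangl1 to Vangl2 ran from 0.177 to 5.80, a 32.7-fold range that was 8.94-fold without KO inhibitor line 3 and 3.76-fold over the 9 libraries without all 3, and was above 1 in 3 libraries: KO inhibitor line 3 with 5.80, WT vehicle line 2 with 1.59 and WT inhibitor line 3 with 1.27. The ratio of Prickle1 to Prickle2 exceeded 1 in the same 3 libraries, at 8.81, 1.13 and 1.09, and lay between 0.638 and 0.889 in the other 9. Celsr1 never reached the level of Celsr2, but their ratio ran from 0.00267 to 0.253, a 94.8-fold range with KO inhibitor line 3 highest, where the next value was 0.0293. Without that library the range was 10.96-fold, and over the 9 libraries 3.03-fold. Dvl1 stayed above Dvl2 in every library, by 1.53 to 6.84 times, and above Dvl3 by 1.32 to 3.00 times. These are ranges of 4.48-fold and 2.28-fold, beside 13.8-fold for Prickle1 to Prickle2. Without KO inhibitor line 3 the 3 ranges were 2.51-fold, 2.28-fold and 1.77-fold in that order. Over the 9 libraries they were 1.29-fold, 1.54-fold and 1.39-fold.

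The levels of Vangl1, Celsr1 and Prickle1 were higher in the 3 libraries with high summed progenitor markers. With the summed progenitor markers, r of log2 values over 12 libraries was 0.983 for Vangl1, 0.928 for Celsr1 and 0.785 for Prickle1, and over the 11 libraries without KO inhibitor line 3 it was 0.973, 0.891 and 0.754. The 11 still hold both WT libraries with high markers, and r over the other 9 was not computed. In those 9 Prickle1 lay between 40.3 and 53.2 CPM while the summed markers ran from 41.0 to 165 CPM. With the mesenchymal markers r was 0.757, 0.775 and 0.449. Dvl2 had r = 0.722 with the progenitor markers, 0.546 with the mesenchymal ones and -0.787 with the glutamatergic ones. Over 11 libraries these were 0.517, 0.502 and -0.549. With the summed glutamatergic markers r for Vangl1, Celsr1 and Prickle1 was -0.851, -0.917 and -0.964, and over 11 libraries -0.919, -0.974 and -0.689. Vangl2, Celsr2 and Prickle2 had r of 0.879, 0.925 and 0.946 with the glutamatergic markers, but over 11 libraries these dropped to 0.0745, 0.275 and 0.36, so that for these 3 genes the relation rests on 1 library. These are descriptions over libraries that share lines, markers and depth, and the part of other cells in the levels of the polarity genes was not tested.

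**Figure D3:**
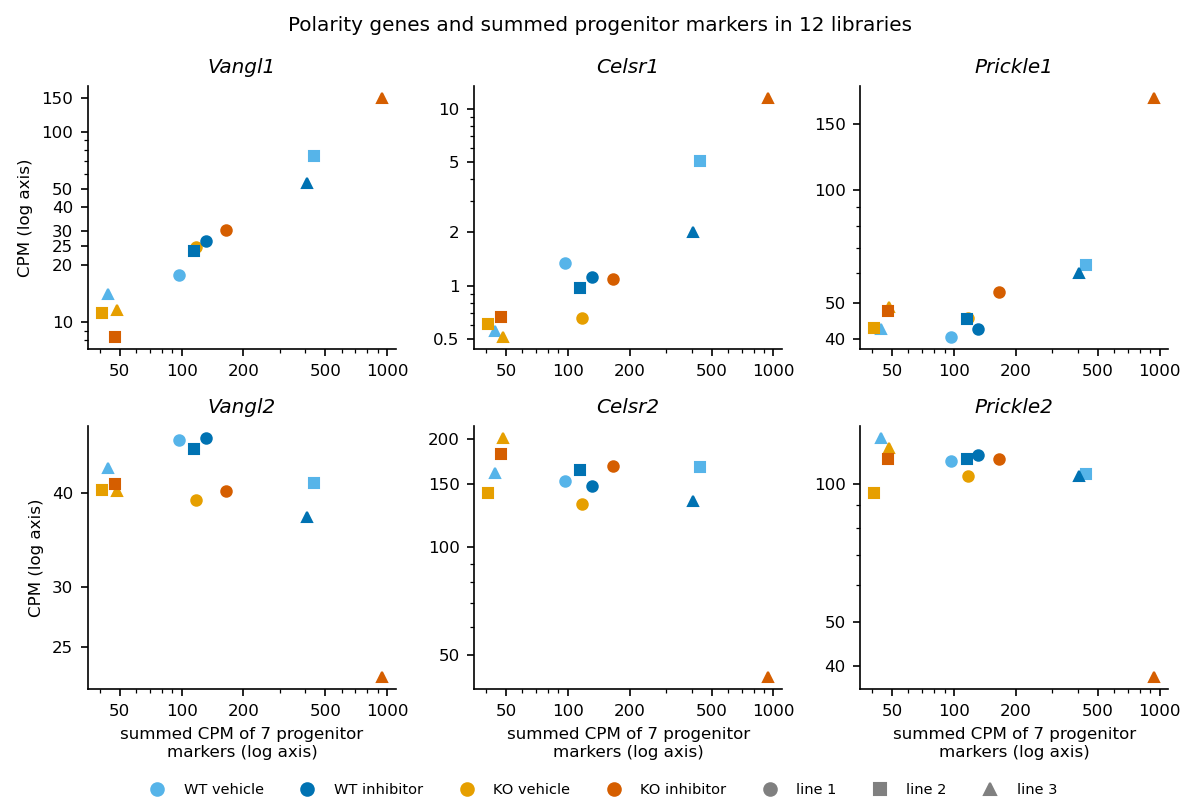
CPM of 3 members (top) and their paralogues (bottom) against the summed CPM of 7 progenitor markers, 1 point a library, both axes logarithmic, colours for groups and symbols for lines. Vangl1 is higher where the markers are higher, over a range from 41.0 to 942 CPM with r of 0.983, whereas the lower row is flat apart from the library at 942 CPM.

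Some pairs of members went together largely through the 3 libraries, while others kept their relation without them. Vangl1 and Celsr1 had r = 0.927 over 12 libraries, 0.87 over 11 and 0.651 over the 9 libraries left after taking out all 3. Celsr2 and Prickle2 had r = 0.968, 0.598 and 0.612. Prickle1 and Prickle2 had r = -0.933 over 12 libraries, but -0.255 over 11 and 0.124 over 9. Other pairs did not keep their value over the 9 libraries: Vangl1 and Prickle1 went from 0.803 to 0.116, Celsr1 and Prickle1 from 0.858 to -0.147, and Vangl2 and Celsr2 from 0.889 to -0.111. Vangl2 and Celsr1 went from -0.688 to 0.677. Some pairs with a Dvl gene held over the 9 libraries. Dvl2 and Celsr2 had r = -0.854 over 12 libraries and -0.859 over 9. Dvl1 and Prickle1 had -0.729 and -0.874, and Dvl1 and Dvl3 had 0.778 and 0.665. Dvl1 and Dvl2 went from -0.13 to 0.874.

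Among 13423 tested genes of at least 1 CPM on average, the genes most like each member across the 12 libraries were named by the correlation of log2 CPM, with the value over 11 libraries beside it. Vangl1 was most like Tead1, a transcription factor gene (r = 0.997, then 0.995), and P3h1, a collagen-modifying enzyme (0.996, then 0.993). Celsr1 was most like Rnf213 (0.989, then 0.979) and Notch2, a Notch receptor (0.986, then 0.976). Prickle1 was most like Herpud1 (0.995, then 0.966) and Slc17a5 (0.993, then 0.952). These likenesses were also high without the library of KO inhibitor line 3.

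Celsr2 was most like Myh10, a non-muscle myosin heavy chain (r = 0.996, then 0.957), and Vps53 (0.996, then 0.955). Prickle2 was most like Adcy1, an adenylyl cyclase (0.995, then 0.925), and Spred2 (0.994, then 0.888), and Vangl2 was most like Nf2 (0.992, then 0.948) and Kcnip1 (0.986, then 0.907). Dvl1 was most like the non-coding RNA Snhg11 (0.991, then 0.989) and Ankrd24 (0.99, then 0.987), Dvl2 most like Acadvl, described above, and Cc2d1b (0.985, then 0.971), and Dvl3 most like Mau2 (0.895, then 0.886) and 0610040B10Rik (0.886, then 0.867). Dvl3, with the least spread over 12 libraries, had the weakest match.

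KO neurons were compared with WT neurons to ask whether loss of the Daam1 microexon goes with other levels of the genes upstream of Daam1. Over both treatments, with the 2 libraries of each line summed and 3 KO lines set against 3 WT lines, no member passed the test (edgeR quasi-likelihood test, Benjamini-Hochberg adjustment, adjusted p = 0.998 for each member). Of 16090 genes 0% passed at an adjusted p below 0.05, 2.65% had an unadjusted p below 0.05, and 8.97% had KO and WT lines that did not overlap. Of the 9 members 0 had an unadjusted p below 0.05 and 0 had lines that did not overlap. With the 3 libraries left out, 12.9% of genes and 3 members, Dvl2 (-0.36), Vangl2 (-0.17) and Prickle1 (0.16), had an unadjusted p below 0.05 (edgeR adjusted p of 0.283 or more), and without KO line 3 the share was 13.0%, with 2 members, Dvl2 and Celsr1. DESeq2 called 88 genes in this comparison, 7 higher and 81 lower in KO, and 0 members.

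Most markers of mesenchymal cells had lower values in KO, and none passed the adjusted test. Over both treatments 5 of 7, Col1a1, Col1a2, Col3a1, Dcn and Lum, were lower in KO at an unadjusted p below 0.05, with log2 fold changes from -3.15 to -2.70 (edgeR adjusted p of 0.101 or more), as were 5 of 7 in vehicle and 5 of 7 in the inhibitor. The summed level of all 7 markers lay between 120 and 1260 CPM in the 6 WT libraries and between 36.3 and 112 CPM in 5 KO libraries. It was 579 CPM in KO inhibitor line 3, where Pdgfra was at 83.2 cRPKM. There Col1a1, Col1a2, Col3a1, Dcn and Lum were at 3.66, 3.76, 4.31, 1.7 and 0.44 cRPKM, each below its median over the 12 libraries. The part of the mesenchymal markers in the values of the polarity genes was not tested.

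Among the scaffolds, the log2 fold change of KO over WT was -0.13 ± 0.23 (SE, n = 3 lines against 3) for Dvl1, -0.065 ± 0.20 for Dvl2 and -0.098 ± 0.092 for Dvl3. It was 0.29 ± 0.79 for Vangl1 and -0.21 ± 0.14 for Vangl2. The cadherins gave 0.59 ± 0.97 for Celsr1 and -0.078 ± 0.15 for Celsr2. Prickle1 gave 0.57 ± 0.40 and Prickle2 -0.20 ± 0.16. The median of the members was -0.078, beside 0.045 for all genes tested, with 3 members above and 6 below 0.

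The 3 positive values came with the KO inhibitor library of line 3. With that library left out of its line's sum, a setting chosen after seeing the data, Celsr1 gave -1.37 (unadjusted p = 0.0119, adjusted p = 0.142), Vangl1 -1.07 and Dvl2 -0.43 (unadjusted p = 0.0093, adjusted p = 0.136), and Prickle1 0.00083. In that setting 23.4% of genes had an unadjusted p below 0.05 and 30 genes were called, 2 higher and 28 lower in KO, none of them a member. That setting leaves out a high library on the KO side alone and keeps both WT libraries with high Celsr1 and Vangl1 values. Without all 3 libraries Celsr1 and Vangl1 were also negative but smaller in size, and 2 genes were called.

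In vehicle alone, no member passed the edgeR test (adjusted p = 0.999 for each). Of 15443 genes 0% passed, 1.99% had an unadjusted p below 0.05 and 12.5% had libraries that did not overlap. Of the members 0 had an unadjusted p below 0.05 and 1, Vangl2, had libraries that did not overlap, a share near that of all genes. The smallest p-values belonged to Celsr1, with a log2 fold change of -1.96 ± 1.10, and Vangl1, with -1.16 ± 0.96. Both rest on WT vehicle line 2: without it Celsr1 gave -0.68 and Vangl1 -0.01. Left out of the shared fit, KO inhibitor line 3 also moved the share of genes with an unadjusted p below 0.05 to 8.58%, with 1 member, Celsr1, and without all 3 libraries it was 6.19%, with 1 member, Vangl2. DESeq2 called 11 genes and 0 members. The members' median was -0.10, beside -0.010 over all genes.

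In the inhibitor, no member passed either (edgeR adjusted p of 0.856 or more). Of all genes 0% passed, 3.50% had an unadjusted p below 0.05 and 10.5% did not overlap between KO and WT. Dvl3 was the 1 member with an unadjusted p below 0.05 (log2 fold change -0.25 ± 0.11, unadjusted p = 0.0442, edgeR adjusted p = 0.856), and Dvl1 and Dvl3 were the 2 members whose libraries did not overlap, both lower in KO. Prickle1 had the next smallest p, with 0.91 ± 0.44, which became 0.03 with KO inhibitor line 3 left out, while Dvl3 stayed at -0.24. Scaled by library totals in place of TMM, Dvl3 gave -0.22 with an unadjusted p of 0.0973 in edgeR. Without that library 9.51% of genes and 1 member, Dvl2 (-0.64), had an unadjusted p below 0.05, and without all 3 libraries 9.67% and 2 members, Dvl2 and Prickle1. DESeq2 called 18 genes and 0 members. The members' median was -0.18, beside -0.0005 over all genes.

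Treatment with Y-27632 was compared with vehicle within each genotype. In WT, no member passed (edgeR adjusted p = 1.00 for each), with 0% of genes passing, 0.304% at an unadjusted p below 0.05 and 5.97% without overlap. None of the 9 members fell in either of the last 2 sets, and DESeq2 called 0 genes. The smallest p-values were those of Dvl3, with a log2 fold change of 0.090 ± 0.11, and Dvl1, with 0.22 ± 0.30, and both signs turned, to -0.029 and -0.096, with WT vehicle line 2 left out. The members' median was -0.012, beside 0.011 over all genes.

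In KO neurons the inhibitor comparison gave its largest positive values for Celsr1, Vangl1 (2.00 ± 0.98) and Prickle1, and no member passed (edgeR adjusted p of 0.474 or more). Of all genes 0% passed, 7.05% had an unadjusted p below 0.05 and 8.84% did not overlap. Celsr1 (2.90 ± 1.12, unadjusted p = 0.0279, edgeR adjusted p = 0.474) and Prickle1 (1.02 ± 0.44, unadjusted p = 0.0456, edgeR adjusted p = 0.474) were the 2 members below 0.05 unadjusted. Celsr1, higher with the inhibitor, and Dvl3, lower, were the 2 members whose libraries did not overlap. DESeq2 called 0 genes.

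Within lines, Celsr1 was higher with the inhibitor in 3 of 3 KO lines, by 0.68, 0.12 and 4.33 on the log2 scale. Prickle1 was higher in 3 of 3 too, by 0.22, 0.15 and 1.85. Dvl1 and Dvl3 were lower in 3 of 3, with -0.56, -0.60 and -0.61 for Dvl1 and -0.30, -0.10 and -0.14 for Dvl3. The share of all genes with the same direction in all 3 lines was not counted, so these are descriptions. Most of the Celsr1 and Prickle1 differences came from line 3. Without its inhibitor library Celsr1 gave 0.57 and Prickle1 0.14, with 0 members and 1.14% of all genes below 0.05 unadjusted. Vangl1 changed by 0.30, -0.43 and 3.70 in the KO lines, and Celsr2 by 0.35, 0.37 and -2.21. In these comparisons summed progenitor markers went from 117, 41.0 and 48.4 CPM in KO vehicle to 165, 47.5 and 942 CPM in KO inhibitor, and their part in the result was not tested. The members' median was -0.18, beside -0.018 over all genes, and became 0.091 without that library.

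The difference between the 2 genotypes in the response to the inhibitor was tested as an interaction. No member passed (edgeR adjusted p of 0.808 or more), and DESeq2 called 0 genes. Of all genes 0% passed and 1.20% had an unadjusted p below 0.05, among them 1 member, Celsr1, with 3.65 ± 1.53 (unadjusted p = 0.0382, edgeR adjusted p = 0.808). Dvl1 had the next smallest p, with -0.81 ± 0.43. With KO inhibitor line 3 left out, Celsr1 gave 1.32 and Dvl1 -0.64, and with WT vehicle line 2 left out they gave 2.43 and -0.48. The comparisons within and between genotypes share libraries, so that a single library enters several of them.

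**Figure D4:**
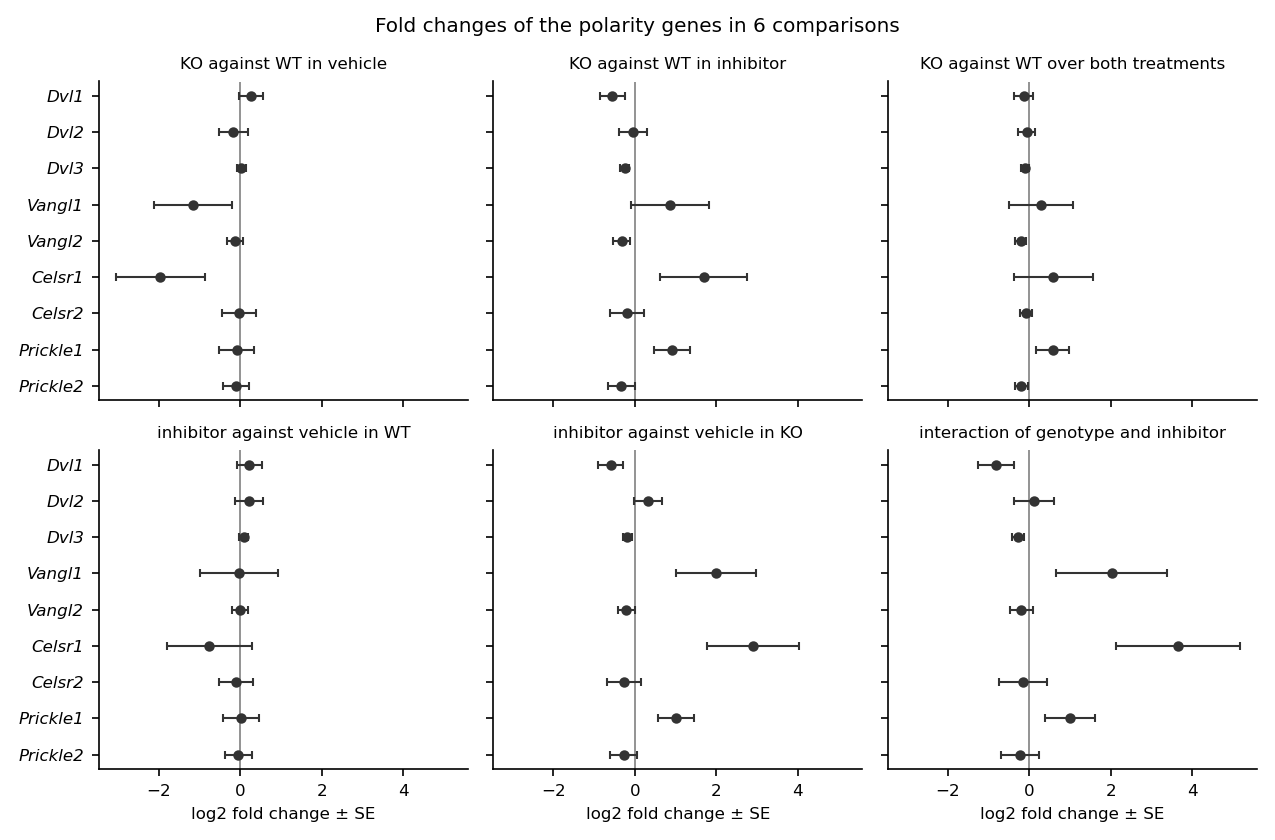
Log2 fold change with its standard error (bars) for the 9 members in 6 comparisons from edgeR, where KO over WT in both treatments uses sums per line. No value passed the adjusted threshold, the widest errors belong to Celsr1 and Vangl1, and Dvl3 has the narrowest.

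Of 43 other genes of the pathway with counts, listed by role, 42 were tested, and 0 were called in any of the 6 comparisons. Over both treatments 21 were higher and 21 lower in KO, with a median log2 fold change of -0.0013. The smallest p-values were those of the receptor tyrosine kinase Ror2, which binds Wnt5a, at -1.10 ± 0.33 (unadjusted p = 0.0161, edgeR adjusted p = 0.998) and of the ligand Wnt5a itself at 0.50 ± 0.20 (unadjusted p = 0.0462, edgeR adjusted p = 0.998). Ror2 lay above the other 9 libraries in both WT libraries with high mesenchymal markers, at 2.07 and 1.29 cRPKM against 0.24 to 0.62. With the 3 libraries left out Ror2 gave -0.26 (unadjusted p = 0.480, edgeR adjusted p = 0.785) and Wnt5a 0.42 (unadjusted p = 0.0120, edgeR adjusted p = 0.276). In KO with the inhibitor, 7 of 42 had an unadjusted p below 0.05, all higher, beside 7.05% of all genes: Wnt4, Fzd7, Ror1, Prickle3, Prickle4, Dkk1 and Dkk3. All 7 lay above the other 9 libraries in KO inhibitor line 3, and without that library 0 of 42 had such a p, beside 1.14% of all genes. In the other 4 comparisons the number was 0.

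Ligands had low median levels in these cultures, and most receptors and the ligand Wnt4 varied with the same 3 libraries as Vangl1. The median level was 1.78 cRPKM for Wnt5a, 1.52 for Wnt11, 1.42 for Wnt7b, 0.995 for Wnt4 and 0.815 for Wnt5b. Of the 5 ligands, 4 lay above the range of the other 9 libraries in KO inhibitor line 3, 3 in WT vehicle line 2 and 1 in WT inhibitor line 3. In these libraries Wnt4 was at 13.8, 2.1 and 2.67 cRPKM, against at most 1.13 in the other 9. Among receptors, Gpc4, a glypican co-receptor, had a median of 7.5 cRPKM, Ryk 7.25, Ptk7 6.96, Fzd3 4.43, Fzd7 2.63, Ror2 0.49 and Ror1 0.385. Fzd7 was at 33.7, 15.3 and 8.36 cRPKM in KO inhibitor line 3, WT vehicle line 2 and WT inhibitor line 3, and at most at 3.76 in the other 9 libraries. Ryk was at 35.0, 15.6 and 12.2 cRPKM in them and at most at 8.89 elsewhere. Fzd3, in contrast, was at 3.48, 3.43 and 4.05 cRPKM there, within the 3.41 to 5.49 of the other 9. In the 3 libraries 5, 6 and 6 of the 7 receptors lay above the range of the other 9. Of 11 cytoplasmic genes of the pathway, 7, 5 and 3 lay above that range and 3, 3 and 3 below it. The share of all genes outside that range in these libraries was not counted, so the counts of each list are descriptions. Of 11 downstream effectors, 8, 3 and 4 lay above that range in the 3 libraries and 2, 4 and 2 below it. Among them, 2 genes chosen after their values were seen lay above it in all 3: RhoA, the GTPase (gene Rhoa), was at 191, 81.1 and 81.6 cRPKM against 52.8 to 68.1, and Rock1, a target kinase of Y-27632, at 10.97, 4.41 and 4.49 against 2.05 to 3.81. Of 4 genes of the Fat and Dachsous system, large cadherins and their modifier, 3 lay below the range of the other 9 in KO inhibitor line 3 and 0 in the 2 WT libraries.

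**Figure D5:**
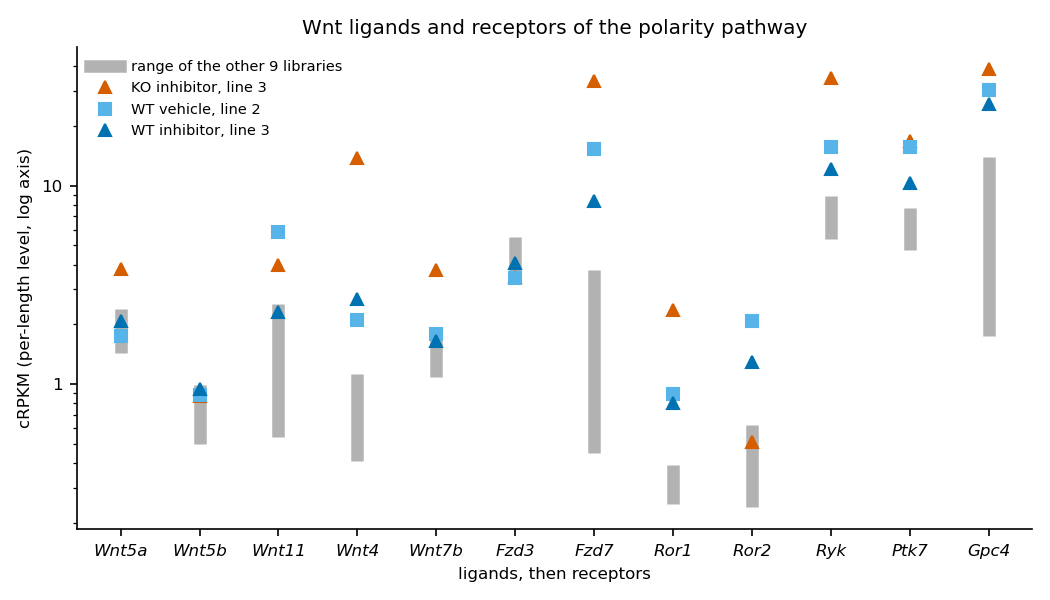
Per-length level (cRPKM, log axis) of 5 Wnt ligands and 7 receptors, with grey bars for the range of 9 libraries and symbols for the 3 libraries with high summed progenitor markers. Wnt4, Fzd7, Ror1, Ryk, Ptk7 and Gpc4 lie above the grey range in all 3 libraries, and Fzd3 and Wnt5b lie within it.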

How the data were processed

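Poly(A) RNA of 12 libraries was sequenced with a strand-specific protocol, per the labels' protocols. The authors deposited 1 table a library with a whole-number read count and a cRPKM value for each Ensembl gene. The deposited counts are not normalized. The deposited cRPKM is a corrected RPKM (reads scaled by length and depth), and the correction is not given in the sources used here. The submitters' processing notes name mm10; aligner, annotation and use of the strand in counting are not given in the sources used here. Symbols came from a table of mouse gene names (33371 of 33560 genes with counts matched) and coordinates from GENCODE M21 (GRCm38).

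Counts were tested with edgeR 4.0.16 in R 4.3.3 (TMM, filterByExpr by group, robust quasi-likelihood F test), all 12 libraries in 1 fit of 15443 genes. KO against WT over both treatments used sums per line (16090 genes). Adjustment was Benjamini-Hochberg over all genes, with calls below 0.05. The standard error is the fold change over the square root of F. The biological coefficient of variation was 0.411 and, for sums, 0.360. The procedure was tested on data simulated with a smaller coefficient of variation than that of these libraries. That check does not show which changes could be found at the spread seen here. Log2 CPM used a prior count of 2. Alternatives were DESeq2 1.42.0, limma 3.58.1 on log2(cRPKM + 0.1), scaling, filtering and libraries left out.

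Vehicle and inhibitor libraries are paired by the labelled line. Their deviations from the group means correlated at 0.411, -0.553 and -0.723 in the WT lines and at -0.191, 0.574 and -0.373 in the KO lines, and a replicate block called 0 genes, as did the fit without it. The labels give no link between KO and WT lines of the same number.

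The members and gene lists were chosen with earlier results of these data known. All members are named with values per library; fold changes are given for all members over both treatments and elsewhere for the 2 with the smallest p; of the pathway lists, the 2 genes with the smallest p over both treatments are named, and ligands and receptors by level.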

Additional observations from a re-analysis of the deposited data

How the results depend on the processing

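No member was called in any of 107 alternative fits (963 member tests); the smallest adjusted p was 0.136, for Dvl2 over both treatments with KO inhibitor line 3 left out of its sum. Genes called went from 0 in KO against WT with DESeq2, to 11 in vehicle, 18 in inhibitor and 88 over both treatments. With the 3 libraries left out they were 2, 1 and 2, without the low-count filter 2 over both treatments, and with the added sum setting 30. Leaving out any single library or line gave 0. DESeq2 called 0 genes in the inhibitor comparisons and the interaction. Why the tools differ was not tested.

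Of 19 fold changes of named members, 9 changed sign in at least 1 alternative. In WT with the inhibitor, Dvl3 and Dvl1 gave -0.045 and -0.073 without the 3 libraries, and -0.029 and -0.096 without WT vehicle line 2; over single libraries left out their highest values were 0.19 and 0.44. Over both treatments, the replicate block gave -0.13 for Celsr1 and -0.12 for Vangl1, and log2(cRPKM + 0.1) with limma -0.078 and -0.37. Without the 3 libraries Celsr1 was -0.42, Vangl1 -0.29 and Celsr2 0.13. With the added sum setting they were -1.37, -1.07 and 0.19, and Prickle2 0.010. Over single lines left out, the range was -1.23 (KO line 3) to 1.13 for Celsr1, -0.89 (KO line 3) to 0.76 for Vangl1, -0.20 to 0.053 (KO line 3) for Celsr2, -0.020 (KO line 3) to 0.81 for Prickle1, -0.30 to 0.023 (KO line 3) for Dvl1, which was 0.0057 without WT line 1, and -0.32 (KO line 3) to 0.052 (KO line 2) for Dvl2, which was 0.030 without KO line 1.

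With the line as a replicate block, the inhibitor effect in KO was 1.68 for Celsr1 and 0.73 for Prickle1, and Dvl1, at -0.59, had an unadjusted p of 0.0423 (edgeR adjusted p = 0.640). The interaction was 1.96 for Celsr1 and -0.90 for Dvl1 (unadjusted p = 0.0328, edgeR adjusted p = 0.929). The block changed no call. KO and WT libraries of the same number had deviations that correlated at -0.350, -0.649 and 0.167 in vehicle and at 0.380, 0.649 and 0.795 in the inhibitor, so not every pair was above 0.1, and they were not treated as paired. Celsr1, with 13 to 363 counts, is the member most limited by depth.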
